A study of Mus musculus with 11 samples.

Results

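Acetylation of lysine 27 of histone H3 (H3K27ac) was compared between stomach glands of mice carrying Atp4bCre and Rosa26NICD (NICD) and stomach glands of wild-type mice (WT). The comparison rests on 4 of the 11 ChIP-seq libraries of the series, 2 per genotype, taken by the genotype and antibody in the labels. Atp4bCre places Cre recombinase under the regulatory sequence of a proton pump subunit gene of acid-secreting parietal cells, and Rosa26NICD supplies the active intracellular part of Notch. The NICD mice serve in the labels as controls for NICD mice with floxed Arid1a, a chromatin remodelling gene; ages were not used here. Fixed epithelial pellets were pooled before immunoprecipitation, per the labels' protocols, so libraries of a genotype may share animals, and any p-value reflects variation among libraries, which may be technical. The 4 peak lists, merged on chromosomes 1 to 19 and X wherever peaks overlapped by at least 1 bp, gave 45899 regions. Of these, 6065 were called in both NICD libraries and neither WT library (NICD-only), and 247 were called in both WT libraries and neither NICD library (WT-only). A further 11309 were called in all 4 libraries.

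H3K27ac is laid down by acetyltransferases such as Ep300 at active promoters and enhancers, and its position away from promoters is widely used to map enhancers. When Notch is activated, its intracellular part enters the nucleus, binds the DNA-binding protein Rbpj and a Mastermind-like co-activator (Maml), and switches on repressors of the Hes and Hey families. In the stomach gland Notch is known to act on progenitor cells and their choice of fate, and the gland holds parietal, chief, mucous neck, pit, endocrine and tuft cells. A whole-gland library averages these, so fewer cells of a type and less of the mark per cell cannot be told apart.

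Promoter windows show where some of the called regions sit. Each window below is RefSeq sequence of GRCm38.p6, 300 bases long and written 5′ to 3′ along the gene, and was chosen because a region of one pattern overlapped it. Capitals mark TGGGAA on either strand, the core of the Rbpj recognition sequence, except in Ccnb2, where they mark CCAAT on either strand, a promoter element known from cell-cycle genes. The windows are Hey2 (chr10:30842734-30843033, minus strand), Dll1 (chr17:15375774-15376073, minus strand), Hrh2 (chr13:54191883-54192182, plus strand) and Ccnb2 (chr9:70421505-70421804, minus strand).
Hey2: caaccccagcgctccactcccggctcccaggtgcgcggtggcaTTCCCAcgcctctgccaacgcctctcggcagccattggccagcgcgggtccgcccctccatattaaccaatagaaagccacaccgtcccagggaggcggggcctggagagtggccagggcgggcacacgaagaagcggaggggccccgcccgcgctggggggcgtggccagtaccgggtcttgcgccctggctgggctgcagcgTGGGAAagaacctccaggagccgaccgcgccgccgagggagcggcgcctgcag
Dll1: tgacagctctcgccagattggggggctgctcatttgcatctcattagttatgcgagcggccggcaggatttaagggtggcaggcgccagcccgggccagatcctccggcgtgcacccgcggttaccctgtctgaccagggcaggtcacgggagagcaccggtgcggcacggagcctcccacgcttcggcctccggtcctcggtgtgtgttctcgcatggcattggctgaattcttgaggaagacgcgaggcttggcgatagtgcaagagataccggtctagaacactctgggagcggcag
Hrh2: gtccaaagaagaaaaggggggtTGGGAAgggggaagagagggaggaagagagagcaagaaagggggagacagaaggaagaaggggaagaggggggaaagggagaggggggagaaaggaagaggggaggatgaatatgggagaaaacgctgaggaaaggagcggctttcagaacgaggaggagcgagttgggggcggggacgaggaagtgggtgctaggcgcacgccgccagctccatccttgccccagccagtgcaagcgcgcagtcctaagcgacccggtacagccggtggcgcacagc
Ccnb2: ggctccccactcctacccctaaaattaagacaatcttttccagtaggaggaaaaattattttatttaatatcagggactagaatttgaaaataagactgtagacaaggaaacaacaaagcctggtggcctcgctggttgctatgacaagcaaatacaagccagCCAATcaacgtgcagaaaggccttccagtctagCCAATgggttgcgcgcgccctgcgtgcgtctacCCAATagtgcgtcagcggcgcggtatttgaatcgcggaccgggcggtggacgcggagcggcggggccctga
Hey2, a Notch-induced repressor, had 2 matches to TGGGAA, starting at bases 44 and 248, and both extended to GTGGGAA when read on the matching strand. Its NICD-only region covered bases 1 to 29 of the window and ran on upstream, so neither match lay inside it. Dll1, a Notch ligand, had no match, and its NICD-only region covered bases 256 to 300. Hrh2, through which histamine stimulates parietal cells, had 1 match, at base 23, and its WT-only region covered bases 292 to 300 and ran on into the gene. Ccnb2, cyclin B2 of mitosis, had 3 matches to CCAAT between bases 164 and 230, and its NICD-only region covered bases 263 to 300.

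Shares of windows that hold these letters are given for all windows and for those a region overlapped. TGGGAA stood in 24.0% of the 1151 windows overlapped by an NICD-only region, against 20.9% of the 7811 windows overlapped by a region of all 4 libraries and 25.4% of all 32619 windows. GTGGGAA, which contains TGGGAA, stood in 6.78% of windows with an NICD-only region, against 5.59% and 6.38% in the same comparison sets. CCAAT stood in 41.2% of windows with an NICD-only region, 34.1% of those with a region of all 4 libraries and 37.6% of all windows. TGANTCA, with N any base, is a looser pattern that includes the AP-1 site, and it stood in 6.60%, 3.98% and 7.85% of the same sets. Both strands were searched in each case. Only 22 windows were overlapped by a WT-only region, 5 of them with TGGGAA.

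The NICD lists were longer than the WT lists although fewer reads lay behind them. On the chromosomes used, NICD replicates 1 and 2 held 41380 and 25423 peaks from 13.9 M and 7.96 M tags after duplicate removal, against 20572 and 18344 peaks from 18.3 M and 17.0 M tags in WT replicates 1 and 2. One library differed from the rest: removed duplicates were a fraction of 0.52 of the tags in NICD replicate 2 and 0.19 in NICD replicate 1, against 0.1 and 0.16 in WT replicates 1 and 2. The lists averaged 33402 ± 11283 peaks in NICD and 19458 ± 1575 in WT (SD, n = 2 each), and the exact two-sided permutation test gave p = 0.333, the smallest that 2 against 2 libraries allow (adjusted over 4 tests, 0.333). Both NICD lists were longer than both WT lists, and without NICD replicate 1 the difference of 13944 peaks became 5965. Median peak width was 396 and 347 bp in NICD, against 240 and 272 bp in WT, again without overlap (exact p = 0.333).

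Markers of gland cells gave a check of the labelled tissue. Peaks lay within 1 kb of a gene end at 5 of 5 epithelial markers (Cdh1, Epcam, Krt8, Krt18 and Cldn18) in each of the 4 libraries. Of 6 parietal markers, 1 and 1 had such a peak in NICD replicates 1 and 2, against 4 and 2 in WT replicates 1 and 2, with Atp4a and Kcne2 called in none of the libraries. Of 6 leukocyte markers, 3 and 2 were called in NICD, against 1 and 0 in WT, with Cd3e and Csf1r called in none; their part in the results was not tested. Pit markers were called at 3 and 1 of 4 in NICD, against 2 and 3 in WT, chief markers at 1 and 1 of 4 against 1 and 0, and neck markers at 2 and 0 of 2 against 0 and 0. None of the endocrine, endothelial or nerve and glial markers had a peak in any library, and tuft and fibroblast or muscle markers each had 1, in NICD replicate 1.

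NICD-only regions were thus 13.2% of all merged regions and WT-only regions 0.538%. Keeping in each list only its strongest peaks by −log10 p, as many as the shortest list held (18344 to 18348 on the chromosomes used), narrowed this gap. At that length 1858 of 26677 merged regions were NICD-only (6.96%) and 867 were WT-only (3.25%), so NICD-only regions remained the larger group at equal length. The cut took the NICD lists down from 41380 and 25423 peaks, and the WT lists only from 20572 and 18344. Of the 1858, 1672 (90.0%) had no WT peak in the full lists either, but little had been cut from the WT lists. Of the 867, only 214 (24.7%) had no NICD peak in the full lists, so most had an NICD peak below the cut. WT-only counts and shares at equal length include these regions throughout. Conversely, 1672 of the 6065 NICD-only regions of the full lists (27.6%) were also NICD-only at equal length. For the 247 WT-only regions the number was 214 (86.6%). Without NICD replicate 2 the full lists gave 22626 and 297 regions, and without NICD replicate 1 they gave 8764 and 1153. Without WT replicate 1 they gave 8363 and 1327, and without WT replicate 2 they gave 7898 and 2053. Each of these runs judged 1 group by a single library, a looser rule, and both counts rose each time. For its size the WT-only count rose most.

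**Figure D1:**
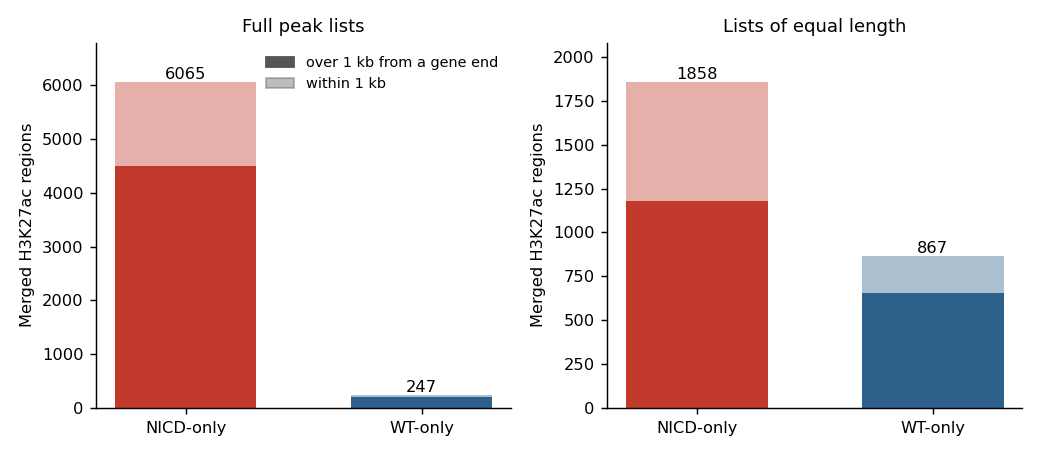
Number of merged H3K27ac regions called in both NICD and neither WT library (NICD-only, red) and in both WT and neither NICD library (WT-only, blue), with full peak lists (left) and with lists of equal length (right); the vertical scales differ. Dark parts of the bars are regions over 1 kb from a protein-coding gene end. The bars stand at 6065 and 247 with full lists and at 1858 and 867 at equal length. At equal length a peak counts only if it was kept, and 214 of the 867 have no NICD peak in the full lists.

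Most regions called in one genotype lay away from gene ends. Distances were measured from the nearest edge of a region to the nearest end, 5′ or 3′, of a protein-coding gene, since the gene table gives no strand. Of the NICD-only regions 74.3% lay over 1 kb away (95% Wilson interval 73.2 to 75.4), against 82.2% of the WT-only regions (76.9 to 86.5) and 31.4% of those called in all 4 libraries (30.6 to 32.3). Of all merged regions, whatever their pattern, 30787 of 45899 lay over 1 kb away, so a distal position was common to most regions. The intervals cover counting of regions alone, and regions of 1 library pair are not independent samples. Median distances were 10.8 kb for NICD-only, 15.4 kb for WT-only and 0.083 kb for regions of all 4 libraries. Over 100 kb away lay 8.24% of the NICD-only and 18.2% of the WT-only regions.

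The distal share moved with the number of peaks kept. At equal list length it was 63.4% for NICD-only regions and 75.5% for WT-only regions, where 14388 of all 26677 merged regions were distal. With the 10000 strongest peaks it was 40.7% and 60.7%. Ranking by fold enrichment in place of −log10 p turned the order, to 67.7% for NICD-only and 64.6% for WT-only regions. Per library, 64.9% and 50.8% of peaks lay over 1 kb from a gene end in NICD, against 44.7% and 43.9% in WT, with full lists (exact two-sided permutation p = 0.333). At equal length the shares were 42.9% and 42.2% in NICD and 42.0% and 43.9% in WT, which overlap (exact p = 1).

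**Figure D2:**
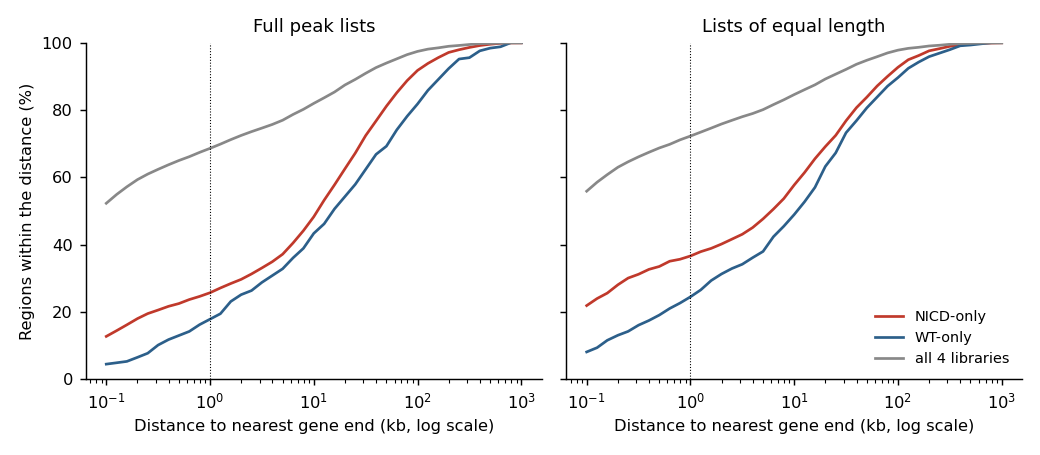
Cumulative percentage of regions (vertical axis) within a distance of the nearest protein-coding gene end (horizontal axis, kb, log scale) for NICD-only (red), WT-only (blue) and all 4 libraries (grey), with full lists (left) and lists of equal length (right). The dotted line marks 1 kb. Regions of all 4 libraries sit close to gene ends, and both other curves lie well below theirs in both panels.

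Distance from a gene end was not always distance from a promoter. Of the 4508 NICD-only regions over 1 kb from a gene end, 205 (4.55%) lay within 1 kb of an annotated start site in the RefSeq promoter table, which covers 79.9% of the protein-coding genes. The same was true of 4 of 203 WT-only regions (1.97%) and of 811 of 3552 regions of all 4 libraries (22.8%). About as many distal NICD-only regions lay inside a gene body (50.2%) as between genes (49.8%), and 52.7% of the distal WT-only regions lay inside one. NICD-only regions were narrower than those of all 4 libraries, with medians of 445 and 746 bp, and WT-only regions were narrower still, with a median of 263 bp.

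The strongest NICD-only regions near gene ends were at genes of varied function. Ranked by the mean percentile of their −log10 p inside the NICD lists, the first 10 within 1 kb were at Erfe, Pemt, Sema4d, Gpr108, Zdhhc18, Ip6k1, Trappc2l, Emp1, Creg1 and Nop56. At Erfe, which encodes the iron-regulating hormone erythroferrone, the region chr1:91366357-91366968 had fold enrichments over the local background of 9.19 and 9.42 in NICD replicates 1 and 2. At Sema4d, a semaphorin, the region overlapped a gene end and had 9.52 and 8.06. At Emp1, an epithelial membrane protein, it had 7.29 and 6.32, and at Nop56, a core protein of small nucleolar ribonucleoproteins, 8.47 and 7.44. WT libraries had no peak at any of these regions, so no WT value is listed. Elsewhere within 1 kb of an end, Ip6k1 had WT peaks, with fold enrichments of up to 8.18 and 7.55 in WT replicates 1 and 2. Nop56 also had such peaks in both WT libraries and Gpr108 in WT replicate 1, whereas Erfe, Emp1 and Creg1 had none. The region nearest to an end of Gpr108 lay inside Trip10, which shows that the nearest end is not always that of the gene holding the region. All 10 were also NICD-only at equal list length.

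Among the 15 strongest NICD-only regions over 1 kb from a gene end, the nearest genes were Lpgat1, Bcl11b, Hdac4, Naip6, Rps6ka1, Tpcn2, Fos, Crybg1, Gpr37l1, Aipl1, 9530068E07Rik, Sumo3, Rarb, Tsc22d1 and Ezr. They lay between 4.67 and 144 kb from the end named, were 372 to 1176 bp wide, and had summit pileups of 41 to 79 reads in NICD replicate 1 and 22 to 45 in NICD replicate 2. In 5 of them an annotated start lay within 1 kb. These were at Hdac4, a histone deacetylase (248 bp), Crybg1 (978 bp), Sumo3, a small ubiquitin-like modifier (50 bp), and Rarb, a retinoic acid receptor, and Tsc22d1, a transcriptional regulator, whose regions overlapped a start. The region nearest to Bcl11b, a zinc finger transcription factor, was chr12:108035254-108035625, 31.1 kb from the gene and outside any other, with fold enrichments of 8.44 and 8.17. Rps6ka1 encodes a kinase acted on by ERK; its region lay 9.71 kb away between genes, with fold enrichments of 5.88 and 7.09. The region nearest to Ezr, which encodes ezrin of microvilli and of the parietal canaliculus, lay 25.7 kb away, with fold enrichments of 4.92 and 5.34.

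Other libraries, which had no part in choosing the regions, also held some of these 15. The 2 H3K27ac libraries from NICD mice with 2 floxed Arid1a alleles called 13 and 10 of them, and those with 1 floxed allele called 3 and 2. Over all 4508 distal NICD-only regions, weaker ones included, the shares were 13.9% and 13.3%, and 1.04% and 1.46%. H3K4me3, a mark of promoters, was called at 11 of the 15 in its NICD library, a list of 39360 peaks, and at 3 in its WT library, a list of 17522. Over all distal NICD-only regions the H3K4me3 shares were 49.1% and 4.95%. With the NICD list limited to its 17522 strongest peaks its share was 14.7%.

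Protein-coding genes nearest to a distal NICD-only region numbered 3045 of 21631 (14.1%), against 193 (0.892%) for distal WT-only regions. Within 1 kb the counts were 1482 genes (6.85%) and 44 genes (0.203%). At equal list length they were 1017 (4.70%) and 576 (2.66%) for distal regions, and 668 (3.09%) and 211 (0.975%) within 1 kb. Most genes had a single distal NICD-only region (2154 genes), 833 had 2 to 4, and 58 had 5 or more. With each region given to its nearest gene, genes with wide surroundings can hold more, so regions were also counted as a share of all merged distal regions: 14.6% were NICD-only and 0.659% WT-only with full lists, and 8.19% and 4.55% at equal length.

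The genes with most distal NICD-only regions were Lmo7 and Enc1, with 9 each, then Foxq1, Abcc4 and Cdh13, with 8 each, Arid1b, Tbl1xr1, Atp2b1, Klf12 and Foxp1, with 7 each, and Bcl11b and Celf4, with 6 each. Foxq1 is a forkhead factor needed for mucin production by pit cells in mice. At equal list length its surroundings held 10 and 12 distal regions in NICD replicates 1 and 2, against 2 and 4 in WT replicates 1 and 2. Both NICD counts were above both WT counts. Cdh13, a cadherin without a transmembrane part, had 6 and 6 distal regions in NICD and 0 and 0 in WT at equal length. Enc1, an actin-binding protein, had 5 and 7 against 1 and 3, and Lmo7, a protein of cell junctions, had 5 and 6 against 2 and 3. At Klf12 none of the 7 NICD-only regions of the full lists was NICD-only at equal length.

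**Figure D3:**
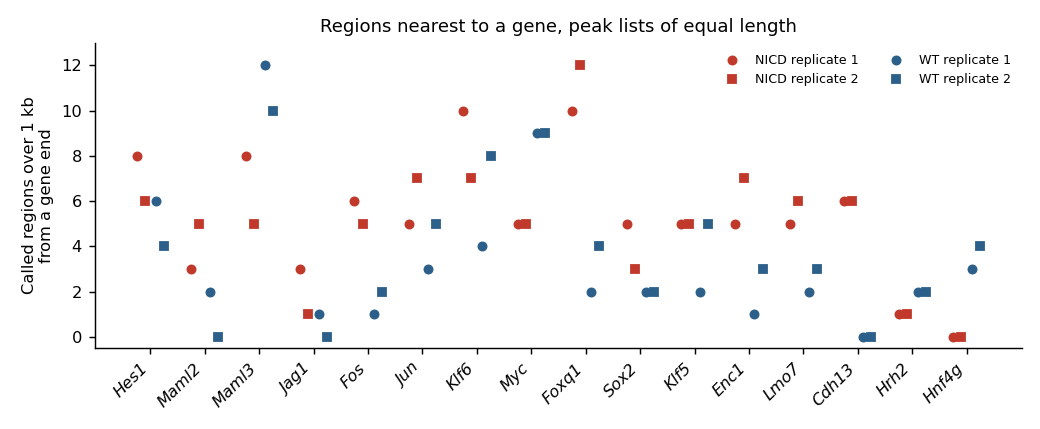
Number of called distal regions (over 1 kb from a gene end) whose nearest gene is the one named, with peak lists of equal length, for genes chosen after their values were seen, in NICD replicates 1 and 2 (red) and WT replicates 1 and 2 (blue). Foxq1, Fos, Enc1, Lmo7 and Cdh13 have more in both NICD libraries than in both WT libraries; Maml3, Myc, Hrh2 and Hnf4g have fewer.

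Among Notch ligands and receptors, 5 of 10 genes had a distal NICD-only region and 1 (Dll1) had one within 1 kb, and none had a WT-only region, with full lists. Their distal regions were NICD-only in 8 of 44 cases (18.2%), beside 14.6% over all genes. Jag1, a ligand, had 4 distal NICD-only regions, between 17.0 and 240 kb from its ends, with fold enrichments from 4.58 to 8.05 in replicate 1 and 3.78 to 7.50 in replicate 2. Notch2 and Notch3, receptors, and the ligand-like Dlk1 had 1 each, at 30.9, 12.2 and 50.1 kb. Dll1 had one 0.293 kb from a gene end, with fold enrichments of 3.71 and 4.29, and a stronger one 1.11 kb away that lay 5 bp from an annotated start, with 5.29 and 6.17. None of these was NICD-only at equal list length, where 1 of 21 distal regions, at Notch3, was WT-only (4.76%, beside 4.55%).

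Among 9 nuclear partners of Notch, 5 had a distal NICD-only region, and 4 did at equal length. Of their 74 distal regions 14 were NICD-only (18.9%), beside 14.6% over all genes, and at equal length 14.3% were, beside 8.19%, with 4.76% WT-only. Maml2, a co-activator, had 4 distal regions inside its body, at 26.5, 128, 146 and 27.8 kb from an end, and 1 at 0.120 kb with fold enrichments of 4.89 and 5.85. At equal length Maml2 held 3 and 5 distal regions in NICD, against 2 and 0 in WT. Maml3 had 5 distal NICD-only regions but also 1 WT-only region inside its body, and its distal regions at equal length numbered 8 and 5 in NICD, against 12 and 10 in WT. Maml1 and Ep300 had 1 each, at 17.5 and 1.09 kb, and Fbxw7, which targets the active Notch fragment for breakdown, had 3, between 43.3 and 218 kb. Spen, an Rbpj-associated repressor, had one within 1 kb, at 0.278 kb. Rbpj itself had 7 and 5 distal regions in NICD, against 6 and 5 in WT, with full lists, and 5 of them were called in all 4 libraries.

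Among 18 Notch targets, 6 had a distal NICD-only region, 2 had one within 1 kb, and 1 had a WT-only region, with full lists. NICD-only regions made up 10.4% of their distal regions, beside 14.6%, and WT-only regions 0.870%, beside 0.659%. At equal length 2 were NICD-only (4.17%) and 3 WT-only (6.25%), beside 8.19% and 4.55%. At Hey2 the region 0.222 kb from the gene, chr10:30843005-30843434, had fold enrichments of 8.19 and 6.90 in NICD replicates 1 and 2, and no WT library had a peak within 1 kb of its ends. Heyl, of the same family, had a region overlapping a gene end with fold enrichments of 4.40 and 5.47, and no WT peak within 1 kb of its ends. Hey1 differed, with a peak at the same place in all 4 libraries and fold enrichments of 8.74 and 6.64 in NICD, against 5.09 and 4.58 in WT. Higher values in NICD were general, as medians over all regions of the 4 libraries were 7.90 and 6.79 in NICD, against 5.83 and 5.62 in WT. Hes1 had a peak within 1 kb of an end in NICD replicate 1 (fold enrichment 3.06) and not in NICD replicate 2, against 2.97 and 2.77 in both WT libraries, and 3 distal NICD-only regions at 11.4, 30.7 and 119 kb. Nrarp, a Notch-induced inhibitor of Notch, had a WT-only region 2.68 kb away, with fold enrichments of 4.85 and 3.76 in WT. Myc had 4 distal NICD-only regions between 56.6 and 444 kb, although at equal length it held 5 and 5 distal regions in NICD, against 9 and 9 in WT.

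Of 15 genes that make or process Notch proteins, 2 had a distal NICD-only region (13.3%, beside 14.1% of all genes), among them Mib1, a ubiquitin ligase for Notch ligands. Pofut1, which adds fucose to Notch, had one at 0.011 kb with fold enrichments of 3.99 and 4.78. Mfng, which modifies that fucose, had a WT-only region at 2.56 kb with fold enrichments of 7.18 and 6.58 in WT. Over the 52 genes of the pathway, 36 of 259 merged distal regions were NICD-only (13.9%) and 3 were WT-only (1.16%), near the 14.6% and 0.659% of all distal regions. At equal length the shares were 6.45% and 5.65%, beside 8.19% and 4.55%.

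Parietal cell genes had regions of both patterns. Of 24 acid-secretion genes, 8 had a distal NICD-only region, 2 had one within 1 kb, 1 had a distal WT-only region and 1 had a WT-only region within 1 kb. The last was Hrh2, whose region chr13:54192174-54192839 ranked first among WT-only regions near gene ends, with fold enrichments of 5.88 and 4.83 in WT replicates 1 and 2 and no NICD peak. Hrh2 also had an NICD-only region at its other end, 3.43 kb away and inside the gene, with 5.61 and 5.29 in NICD. Atp4b, the pump subunit whose regulatory sequence drives the Cre, had a peak within 1 kb of an end in neither NICD library and in both WT libraries, with fold enrichments of 4.12 and 3.90. Its WT peaks did not overlap each other, so they formed no WT-only region. Slc26a9, a chloride transporter, was called within 1 kb in WT replicate 1 alone (fold enrichment 3.40).

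Kcnq1, the potassium channel that serves the pump, had peaks near an end in both NICD libraries, with fold enrichments of up to 4.32 and 4.18, and in WT replicate 1 (3.60), and a distal NICD-only region 94.7 kb away. Sstr2, the somatostatin receptor, had 3 distal NICD-only regions and 1 at 0.139 kb, all inside the neighbouring gene Slc39a11. Slc9a2, a sodium and proton exchanger, had 2 distal NICD-only regions and 1 WT-only region, and Slc9a4, of the same family, had an NICD-only region at 0.041 kb. The water channel Aqp4 had 2, and Car2, a carbonic anhydrase, and Slc4a2, an anion exchanger, had 1 distal NICD-only region each. Ezr, described above, was the eighth gene. Merged distal regions of the acid-secretion genes were NICD-only in 12 of 117 cases (10.3%) and WT-only in 1 (0.855%), beside 14.6% and 0.659% over all genes. At equal length the shares were 7.02% and 8.77%, beside 8.19% and 4.55%.

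Of 8 parietal regulators, 5 had a distal NICD-only region (Esrrb, Hip1r, Ppargc1a, Ppargc1b and Tfeb) and 1, Ppargc1b, also had one at a gene end. Of their 32 distal regions 7 were NICD-only (21.9%), beside 14.6% over all genes, and at equal length 3 of 17 were (17.6%), beside 8.19%. Hip1r, an endocytic protein that parietal cells need in mice, had 2, the stronger with fold enrichments of 5.53 and 6.91. Ppargc1a, a co-activator of mitochondrial genes, had one 129 kb from an end, inside the gene, with 5.94 and 7.79. Esrrg, an orphan nuclear receptor of parietal cells, had a WT-only region at chr1:187651850-187652145, 43.3 kb from a gene end but 92 bp from an annotated start, with fold enrichments of 6.29 and 3.71 in WT. No NICD library called any region nearest to Esrrg.

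AP-1 and early-response genes were among the lists with most regions. Of 21 genes, 11 had a distal NICD-only region, 32 regions in all, and none had a WT-only region with full lists. Of their 161 merged distal regions 19.9% were NICD-only, beside 14.6% over all genes, and 13.4% at equal length, beside 8.19%. WT-only regions at equal length numbered 3 of 82 (3.66%), at 2 genes, beside 4.55%. Fos, which pairs with Jun in the AP-1 factor, had 5 distal regions and 1 at 0.509 kb. The strongest, chr12:85486171-85486781, lay 8.90 kb away with fold enrichments of 5.84 and 6.45. At equal length Fos held 6 and 5 distal regions in NICD, against 1 and 2 in WT. Jun had 5 distal NICD-only regions, and at equal length it held 5 and 7 in NICD, against 3 and 5 in WT, so the groups met at 5. Klf6, a zinc finger factor, held 10 and 7 in NICD, against 4 and 8 in WT, which overlap.

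Gastric transcription factors had 57 NICD-only regions among 354 merged distal regions (16.1%), at 22 of 38 genes, and 5 WT-only regions (1.41%), at 4 genes. At equal length the shares were 10.9% and 8.97%, so WT-only regions also stood above their share of 4.55% over all genes. That was not particular to this list, as 4 of 22 distal regions of housekeeping genes were WT-only at equal length (18.2%). Foxq1 led the gastric list, with its strongest region 41.9 kb away (fold enrichments of 4.93 and 6.62). Sox2, a factor of gastric progenitors, had 5 distal NICD-only regions and 1 at 0.281 kb, with fold enrichments of 3.32 and 3.93. Klf5, an epithelial zinc finger factor, had 6 distal regions. Hnf4g, a nuclear receptor of gut epithelium, had 2 WT-only regions, the stronger 337 kb away with fold enrichments of 8.70 and 6.49 in WT, and 1 NICD-only region.

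Cell-cycle genes had most of their NICD-only regions near gene ends. Of 45, 5 had a distal NICD-only region (11.1%, beside 14.1% of all genes). Within 1 kb of an end 13 had one, against 6.85% of all genes. They were the mitotic genes Aurkb, Bub1, Bub1b, Ccnb1, Ccnb2, Cdc20 and Top2a, the replication genes Mcm3 and Mcm4, the regulators E2f8, Mybl2 and Cdk6, and the inhibitor Cdkn2a. By percentile of −log10 p, E2f8 came first, with fold enrichments of 9.20 and 6.25 in NICD, then Aurkb with 8.08 and 6.85, Cdk6 with 3.85 and 4.71 and Bub1b with 7.86 and 5.98; Ccnb2 had 7.75 and 5.31. At equal list length 5 of the 45 kept an NICD-only region within 1 kb, beside 3.09% of all genes. None of the 45 had a WT-only region with full lists, and 1, Mybl2, had a distal one at equal length. Of 25 housekeeping genes, 7 had an NICD-only region within 1 kb, led by Rpl13a, a ribosomal protein (4.68 and 4.95), and Hnrnpa1. At equal length 3 of the 25 had one. NICD-only regions within 1 kb were thus not particular to cell-cycle genes, but the 2 lists differed in what else was called there. A region of all 4 libraries lay within 1 kb at 19 of the 25 housekeeping genes and at 8 of the 45 cell-cycle genes. With full lists no WT library had a peak within 1 kb at E2f8, Aurkb, Cdk6, Bub1b or Ccnb2. Hnrnpa1 had one in WT replicate 1, and Rpl13a had one in both WT libraries.

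Signalling and junction lists lay on both sides of the overall share of 14.6%. NICD-only shares of merged distal regions were 13.9% for Wnt genes, 13.9% for EGF and MAPK genes, 17.6% for hedgehog, BMP and TGF-beta genes, 17.0% for Hippo and cytoskeleton genes, 15.4% for junction and matrix genes, 16.3% for NF-kB and cytokine genes and 12.1% for p53 and apoptosis genes. At equal length hedgehog, BMP and TGF-beta genes stood at 7.79% and junction and matrix genes at 4.69%, beside 8.19% over all genes. Above 8.19% stood Wnt (10.3%), EGF and MAPK (8.33%), Hippo and cytoskeleton (11.9%), NF-kB and cytokine (9.68%) and p53 and apoptosis genes (9.80%). With full lists Ephb3, a Wnt-controlled receptor, had 3 distal NICD-only regions, the strongest with fold enrichments of 5.60 and 5.20. Tjp1, a tight-junction protein, had 3, the strongest with 7.57 and 7.93. Dusp4, a phosphatase of MAP kinases, had 4 distal and 1 within 1 kb, and held 6 and 6 distal regions in NICD, against 3 and 4 in WT, at equal length. Gadd45b, a stress-response gene, had one 0.316 kb away with 5.40 and 5.64.

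Among cell-type lists the pit list stood at 20.9% of 67 merged distal regions, beside 14.6% over all genes, 8 of its 14 NICD-only regions being those of Foxq1. The isthmus and stem list stood at 17.7% of 62, and mucous neck at 8.11% of 37, with a WT-only region 5.59 kb from Muc6, a gland mucin. Chief genes had 2 distal NICD-only regions, endocrine genes had 1 beside 1 WT-only region, and Bhlha15, the chief cell factor Mist1, had one at a gene end. The squamous list had 8 of 27 (29.6%), 4 of them at Krt8 and Krt18 and 2 at Krt19, keratins that glandular epithelium also expresses; Trp63, a squamous factor, had 1 at 98.3 kb with fold enrichments of 7.85 and 6.38. Leukocyte genes had 4 of 28 (14.3%), and Ptprc, the pan-leukocyte antigen CD45, had a region 0.396 kb from an end with 5.73 and 6.29. Fibroblast and muscle genes had 2 of 15, endothelial genes 3 of 37 and neural genes 2 of 14, tuft genes 1 of 12, intestinal genes 4 of 20 and energy genes 6 of 52. Genes of unrelated tissues had 2 of 10. At equal length the pit list stood at 13.9% of 36, beside 8.19% over all genes, with all 5 of these regions at Foxq1. Its WT-only share was 5.56%, beside 4.55%. Within 1 kb, 3 of 17 pit genes had a WT-only region at that length, beside 0.975% of all genes, and none had an NICD-only one. The isthmus and stem list stood at 15.4% of 26, and the chief, mucous neck and leukocyte lists had no distal NICD-only region.

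**Figure D4:**
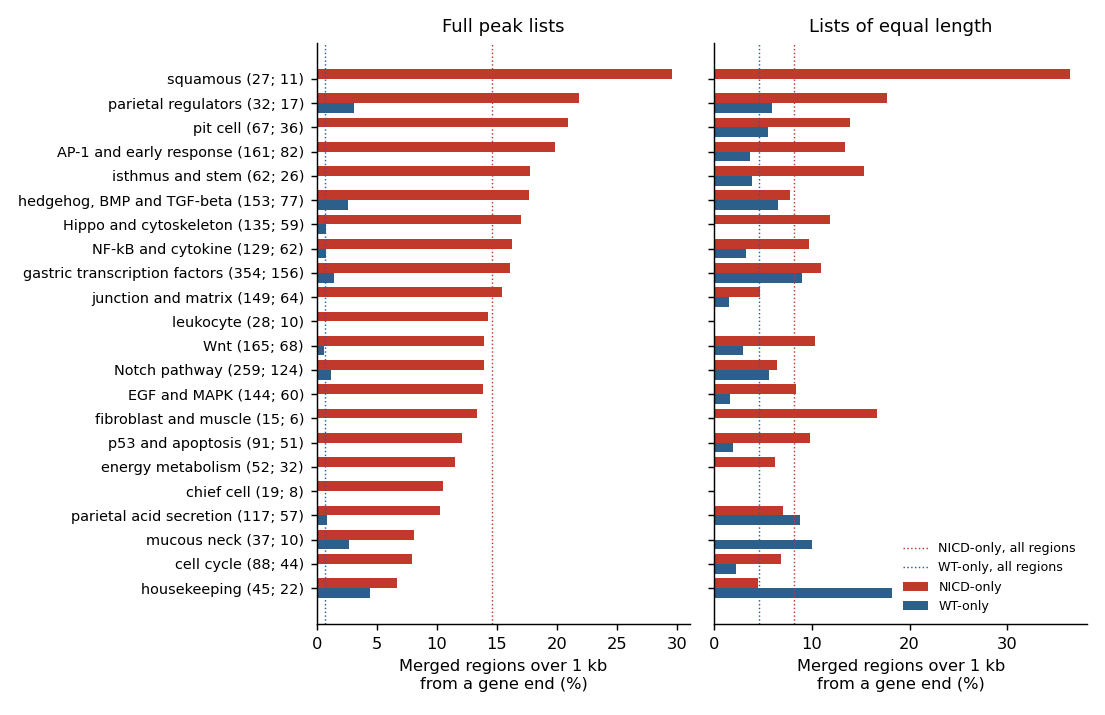
Percentage of merged distal regions that were NICD-only (red) and WT-only (blue) for the regions nearest to genes of each list, with full lists (left) and lists of equal length (right); numbers after each name are the merged distal regions in the 2 settings. Dotted lines mark the shares over all distal regions, 14.6% and 0.659% on the left and 8.19% and 4.55% on the right. AP-1 and early-response genes lie above the red line in both panels, and the Notch pathway lies just under it in both.

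The strongest WT-only regions are given without any filter on artefact-prone parts of the genome, which was applied to none of the lists here. After Hrh2, those within 1 kb of a gene end were at Tnfsf12, a cytokine of the TNF family, Hspa12b, Dbn1, an actin-binding protein, Prcp, a peptidase, Trak1, Tmem151a and Adgrf2, with fold enrichments between 3.98 and 6.61 in WT. The genes nearest to the 12 strongest over 1 kb away included Vmn1r238, Csmd1, Olfr161, Ddx18, Fam174a, Gabrg1, Cspg5, Olfr1274, Tbce, Kpna1 and Myl12b. These 12 regions were 172 to 548 bp wide and lay up to 789 kb from a gene end, with summit pileups of 14 to 52 reads in WT replicate 1 and 14 to 77 in WT replicate 2. Several of these genes, such as the olfactory receptors and the neuronal Gabrg1, are not known for a role in gastric glands. None of the 12 lay within 1 kb of an annotated start.

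The NICD H3K4me3 library called 8 of the 12 and the WT H3K4me3 library all 12. All 12 were called in replicate 1 of NICD with 1 floxed Arid1a allele and 7 in its replicate 2, against 2 and 0 with 2 floxed alleles. Over all 203 distal WT-only regions, 34.0% had an NICD H3K4me3 peak, or 11.8% with that list limited to the length of the WT list, and 27.6% had a WT H3K4me3 peak. Of the same 203, 8 (3.94%) lay before the first protein-coding gene of their chromosome, against 2 of 4508 distal NICD-only regions (0.0444%). Of the genes with most distal WT-only regions, Alkbh8 and Sfi1 had 3 each, and Hnf4g, Slc38a10, Magi1 and Shh 2 each. Alkbh8 had 26 and 22 distal regions in NICD and 29 and 29 in WT with full lists, 22 of its 31 merged regions being called in all 4 libraries.

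NICD-only regions of H3K27ac more often had an H3K4me3 peak in the NICD library than in the WT library. With the NICD H3K4me3 list limited to its 17522 strongest peaks, as many as the WT list held, 70.3% of the NICD-only regions near gene ends had an NICD H3K4me3 peak, against 41.9% with a WT peak. Away from gene ends the shares were 14.7% and 4.95%. For regions of all 4 H3K27ac libraries the same shares were 95.8% and 91.6% near gene ends and 56.0% and 52.2% away from them. Each H3K4me3 group held 1 library, so the difference has no replicate check, and the protocol in the labels names an H3K27ac antibody for every library.

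Libraries with floxed Arid1a alleles, which also carry Atp4bCre and Rosa26NICD, held different parts of the NICD-only set. Those with 2 floxed alleles called 20.9% and 19.9% of the NICD-only regions, from 15353 and 14364 peaks, against 86.2% and 81.9% of the regions of all 4 libraries. Those with 1 floxed allele called 1.01% and 2.16%, from 5148 and 7594 peaks, against 37.9% and 55.3%. List lengths differ between these groups, and the shares were not set on one scale.

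**Figure D5:**
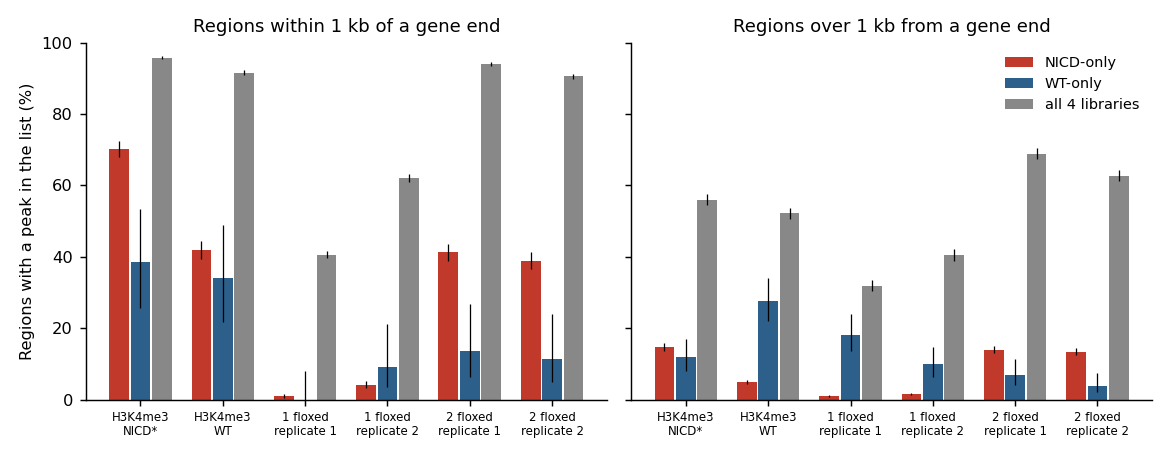
Percentage of NICD-only (red), WT-only (blue) and all-4-library (grey) regions with a peak in 6 other lists, near gene ends (left) and over 1 kb away (right); bars give 95% Wilson intervals. The starred NICD H3K4me3 list was limited to the 17522 strongest peaks, the length of the WT list, and "1 floxed" and "2 floxed" are H3K27ac lists of NICD mice with that number of floxed Arid1a alleles. NICD-only regions near gene ends reach 70.3% in the NICD H3K4me3 list and 41.9% in the WT list.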

How the data were processed

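The submitters' processing notes name Bowtie2, MACS2 and GRCm38 (mm10) for the single-end reads. Per the file headers, MACS 2.0.10.20131216 called peaks library by library without a control, with 1 read kept per position, a q-value threshold of 0.05, a local background of 10 kb and an effective genome of 2.7 Gb, the setting for human. The authors' deposited scores (pileup signal, −log10 p and q, and fold enrichment, a ratio) were used only inside a list to rank, filter or describe peaks. Lists of NICD with 2 floxed Arid1a alleles hold positions only. Absence from a list does not show absence of acetylation.

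Merging, distances and counts were made with Python 3.11.15, numpy 2.4.6 and scipy 1.17.1, and checked on simulated lists; figures used matplotlib 3.10.9. Tags after duplicate removal set the depth (7.96 M to 18.3 M per library). Gene ends came from RefSeq (GRCm38.p6, 21631 protein-coding genes). Named regions are the strongest by mean percentile of −log10 p (10 near and 15 distal NICD-only, 8 near and 12 distal WT-only) and genes with most distal regions (12 and 6); Notch and parietal members are covered, and leading members of other lists, except that some genes are not reported here. Of the names in the 31 gene lists, 1 did not match. Members, lists and motifs were chosen with earlier results of these data known. Values per library were compared by exact permutation. Alternatives were equal list lengths, stricter lists, other overlaps and distances, leaving out each library and, chosen after seeing the data, start sites in place of gene ends. The H3K4me3 library with floxed Arid1a, whose labels disagree, was not used.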

Additional observations from a re-analysis of the deposited data

How the results depend on the processing

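NICD-only regions outnumbered WT-only regions under every alternative run. They numbered 1858 and 867 with lists of equal length by −log10 p, 869 and 534 with 10000 peaks, and 2030 and 1159 at equal length by fold enrichment. With no peak of the other group within 1 kb they numbered 4528 and 161. The rest of the 6065 NICD-only regions thus had a WT peak within 1 kb. A −log10 q of at least 3 and a larger required overlap kept both counts within 1.5 times. Leaving out 1 library, which loosens the rule, gave 7898 to 22626 NICD-only and 297 to 2053 WT-only regions.

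The distal share was 63.4% and 75.5% (equal length), 40.7% and 60.7% (10000), 67.7% and 64.6% (by fold enrichment), 68.8% and 73.7% (2.5 kb), 66.7% and 74.5% (ends of all annotated genes) and 77.3% and 87.1% (start sites, added after seeing the data), for NICD-only and WT-only regions. For NICD-only regions it was 72.7% at a −log10 q of at least 3 and 81.3% with no WT peak within 1 kb. Leaving out 1 library gave 68.2% to 82.0% and 70.4% to 84.9%.

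Differences between NICD and WT per library turned at equal length by −log10 p, to −0.420 percentage points in distal share and −175 bp in median distance, which was −59 bp by fold enrichment; the cause was not tested. By fold enrichment the difference in distal share kept its direction, at 2.14 percentage points. With a replicate block the mean difference in peaks stayed 13944, with an exact sign-flip p = 0.5, the smallest that 2 pairs allow. Replicate numbers share no stated source, and differences between replicates 1 and 2 were nearly unrelated across regions (correlation −0.0225). With no control and 2 libraries a group, no test per region was run.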

Other observations

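Of 1005 miRNA hairpins, 79 (7.86%) had an NICD-only region within 5 kb, 3 (0.299%) a WT-only region and 186 (18.5%) a region of all 4 libraries. The pairs below were chosen after their values were seen, because an NICD-only region overlapped a hairpin with a known inducer: miR-34b and miR-34c, which p53 induces, and miR-212 and miR-132, which CREB induces. RefSeq mature sequences (GRCm38.p6) have the seed, bases 2 to 8, in capitals. The hairpins of miR-34b and miR-34c lie on the minus strand at chr9:51103562-51103645 and chr9:51103034-51103110, and those of miR-212 and miR-132 on the plus strand at chr11:75173388-75173478 and chr11:75173682-75173747.
mmu-miR-34b-3p: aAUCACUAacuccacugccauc
mmu-miR-34c-3p: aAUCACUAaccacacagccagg
mmu-miR-212-3p: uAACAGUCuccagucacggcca
mmu-miR-132-3p: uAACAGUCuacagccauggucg
The seeds of miR-34b-3p and miR-34c-3p are the same, as are those of miR-212-3p and miR-132-3p. The other arm of the Mir34b hairpin, miR-34b-5p, has a different seed, GGCAGUG. The region chr9:51103597-51103889 overlapped the Mir34b hairpin, with fold enrichments of 4.92 and 5.62 in NICD replicates 1 and 2, and lay 487 bp from Mir34c. The region chr11:75173295-75173678 overlapped the Mir212 hairpin and lay 4 bp from Mir132, with fold enrichments of 5.95 and 5.22. No WT library had a peak at either region. The Mir212 region was also NICD-only at equal list length and the Mir34b region was not.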
